A study of Xenopus laevis with 3 samples.

Results

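MicroRNA sequences annotated in Xenopus were compared between the orphan and the non-sibling library of a study of larval rearing in Xenopus laevis. Entries with a Xenopus tropicalis, Xenopus laevis or Xenopus borealis name prefix (xtr-, xla-, xbo-) were taken from a table of mature microRNA entries of many species. Entries with an identical mature sequence were merged, which left 170 distinct sequences out of 178 Xenopus entries. Of these, 156 held 30 counts or more when the 3 libraries were added up and form the set described here, among 1272 named entries in all and 866 with that many counts. The other 14 had between 1 and 28 counts in all and are not compared. The limit is on raw counts, so the deep orphan library weighs most in it. MiR-33b (28 orphan, 2 non-sibling and 0 sibling counts), miR-208 (33, 3 and 3), miR-1b (81, 5 and 1) and miR-153 (69, 8 and 3) reached it only through their orphan counts. So did miR-142-3p (26, 4 and 0), miR-142-5p (50, 9 and 1) and miR-338 (60, 13 and 1). The same holds for miR-182-3p (45, 20 and 4) and miR-17-3p (96, 28 and 0). MiR-449b-3p (20, 34 and 3) reached it only through its non-sibling counts. MiR-122 (1, 22 and 5) did not reach it. Names are given below without the xtr- prefix.

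The study compared 3 rearing conditions with 1 library each: orphan, non-sibling and sibling. All 3 came from 15-day-old larvae, with no strain or genotype named, at stage 45, and the sampled tissue was the accessory olfactory bulb, the forebrain centre that receives vomeronasal input. Sections were cut at 50 µm from frozen tissue and the neuronal part was taken by scalpel, so each library pools the cells of that cut. The labels name 15 larvae without saying whether per condition or in all, do not say how the larvae were housed, and name an mRNA library kit beside a microRNA description.

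MicroRNAs are short RNAs that guide Argonaute proteins to messenger RNAs and lower their translation and stability. Bases 2 to 8 of the mature strand, the seed, do most of the target recognition, and microRNAs that share a seed are grouped as a family with overlapping targets. Many families are strongly tied to a cell type, such as miR-124 and miR-9 to neurons, miR-1 and miR-133 to muscle, and miR-34 and miR-449 to multiciliated cells, and neighbouring microRNA genes are often processed from one transcript.

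The sequences below carry the main differences. They come from the deposited table, are written 5′ to 3′, and have the seed in capitals. The miR-34 and miR-449 sequences are shown because every member of that family was lower in the orphan library. The seed GGCAGUG is common to miR-34a and the 3 miR-449 5p strands, while miR-34b carries the same letters moved by 1 base.
miR-34a: uGGCAGUGucuuagcugguuguu
miR-34b: cAGGCAGUguaguuagcugauug
miR-449a-5p: aGGCAGUGuaauguuagcuggu
miR-449b-5p: aGGCAGUGuaguuuuagcugg
miR-449c-5p: aGGCAGUGcacuugcuagcuggcugu

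MiR-192 and miR-215 share the seed UGACCUA, and miR-194 has another seed although its genes lie beside theirs in vertebrates. MiR-191 and miR-425-5p, also neighbours in vertebrate genomes, have unrelated seeds. All 5 were lower in the orphan library.
miR-192: aUGACCUAugaauugacagcc
miR-215: aUGACCUAugaaaugacagcc
miR-194: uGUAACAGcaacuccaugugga
miR-191: cAACGGAAucccaaaagcagcu
miR-425-5p: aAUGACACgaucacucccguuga

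The next sequences were higher in the orphan library or, for miR-96, miR-182-5p and miR-206, belong to the same cluster or family. MiR-19a and miR-19b share the seed GUGCAAA and differ by U11C, counted from 1 at the 5′ end with the miR-19a base first. MiR-1a, miR-1b and miR-206 share the seed GGAAUGU.
miR-184: uGGACGGAgaacugauaaggcu
miR-183: uAUGGCACugguagaauucacug
miR-96: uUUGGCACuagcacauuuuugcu
miR-182-5p: uUUGGCAAugguagaacucaca
miR-19a: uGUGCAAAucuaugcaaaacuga
miR-19b: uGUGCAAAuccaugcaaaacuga
miR-1a: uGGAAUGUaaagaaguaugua
miR-1b: uGGAAUGUuaagaaguaugua
miR-206: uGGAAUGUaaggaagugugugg
miR-499: uUAAGACUugcagugauguuuag
miR-190: uGAUAUGUuugauauuagguu

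The libraries differed in depth: 22538325 counts for orphan, 5188106 for non-sibling and 865654 for sibling. The 156 sequences made up 19.9% of all counts for orphan, 19.8% for non-sibling and 21.3% for sibling. Entries of other species often repeat the counts of a Xenopus sequence, so the rest of the counts is not all separate microRNA. Levels are given as scaled CPM, counts per 1e6 library counts (CPM) after TMM scaling, in which 1 count is worth 0.0460 in the orphan, 0.152 in the non-sibling and 1.41 in the sibling library. A sequence is called higher or lower when the ratio of orphan over non-sibling scaled CPM was at least 2 or at most 0.5 and its exact 95% interval excluded 1. There is 1 library per condition, so no difference has a replicate check, there is no p-value, and each interval covers counting error only.

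By this rule 14 of the 156 sequences were higher in the orphan library, 20 were lower and 122 were neither. Over all 866 entries that had 30 counts or more, 7.51% were higher and 12.6% lower, so the Xenopus shares of 8.97% and 12.8% were near the background. Among the 702 entries of other species the shares were 7.26% and 12.5%. The 866 entries include the Xenopus ones, and many entries of other species had counts equal or close to those of a Xenopus sequence. For example, a miR-19a entry of another species had 489 orphan, 38 non-sibling and 15 sibling counts, as did the Xenopus sequence. The near match of these shares was thus largely fixed in advance. The median log2 ratio of the 156 sequences was 0.04, with quartiles of -0.58 and 0.49, and that of all entries was 0.02. Scaling by total counts instead moved the median of all entries by -0.39 on the log2 scale, and upper-quartile scaling moved it by 0.16. With total counts 5 sequences were higher and 38 lower, and with TMM computed on the Xenopus entries alone 7 were higher and 25 lower. At a 3-fold size, 7 sequences were higher and 14 lower, beside 3.46% and 6.24% of all 866 entries. Under 6 other scalings 45 sequences always had a log2 ratio above 0, 61 always below 0 and 50 changed sign, and all 20 lower calls held under each. Among the 6, TMM on the orphan and non-sibling libraries alone gave the same ratios as the main scaling. Of the 14 higher calls, 5 held under each of the 6 scalings: miR-184, miR-190, miR-19a, miR-1b and miR-499. Of these, miR-1b passed the count limit only through its orphan counts. The other 9 higher calls were lost under total-count scaling. Apart from quantile normalization, these scalings move all log2 ratios alike, by -0.39 to 0.16. With the weakest lower call at -1.23, no lower call could be lost to such a shift. The weakest higher call, at 1.06, lay nearer its limit. With a shift of -0.15 (TMM on the Xenopus entries alone) 7 higher calls were lost. With one of 0.16 (upper quartile) 0 calls were lost. The contrast between lower and higher calls thus depends on the scalings chosen and on how near the calls lie to the limits of the rule.

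**Figure D1:**
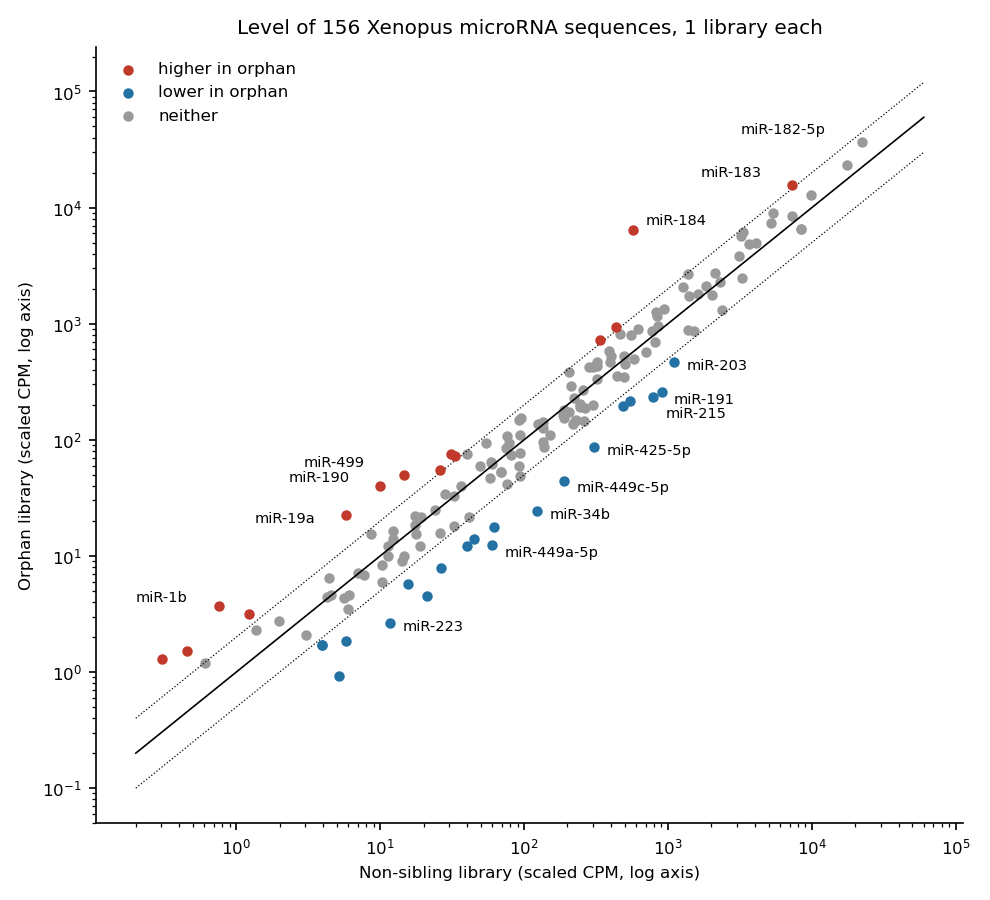
Level of each of the 156 Xenopus sequences in the non-sibling library (x axis) and the orphan library (y axis), in scaled CPM on log axes, 1 point per sequence. The solid line marks equal levels and the dotted lines a ratio of 2 and 0.5; the 14 higher sequences lie above the upper line with miR-184 farthest out, and the 20 lower ones lie below the lower line.

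The miR-34 and miR-449 family, known for its part in making multiciliated cells and in frogs for ciliated skin cells, was lower in the orphan library in all 6 of its sequences. MiR-34b, the most changed of the 5p strands, stood at 24.6 scaled CPM in the orphan library, against 123 in the non-sibling and 89.1 in the sibling library. MiR-449c-5p, the most abundant member, stood at 44.0 in the orphan, 188 in the non-sibling and 67.9 in the sibling library, and miR-449a-5p at 12.5, 60.2 and 41.0 in the same order. The non-sibling library was the highest of the 3 for each of these. The log2 ratios, orphan over non-sibling, ran from -2.48 for miR-449b-3p to -1.77 for miR-34a, with a median of -2.25. MiR-449b-3p passed the count limit only through its non-sibling counts, so it cannot be weighed among the 6. The lowest of the others was miR-34b at -2.32. Summed over the family, the orphan library had 94.3 scaled CPM, against 424 in the non-sibling and 221.97 in the sibling library, a ratio of 0.222 (95% interval 0.210 to 0.236).

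MiR-191 and miR-425-5p, produced in mammals from neighbouring hairpins in one gene, were lower together. MiR-191 stood at 260 scaled CPM in the orphan, 901 in the non-sibling and 803 in the sibling library, so the ratio over non-sibling was 0.288 (0.278 to 0.299). MiR-425-5p stood at 86.4, 305 and 256 in the same order, a ratio of 0.284 (0.266 to 0.302). The orphan library was the low one in both cases, with the other libraries close to each other.

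MicroRNAs of the digestive organs and kidney split into those that were lower and those that were not. MiR-215 stood at 234 scaled CPM in the orphan, 791 in the non-sibling and 697 in the sibling library (ratio 0.295, 0.284 to 0.307). Its family partner miR-192 stood at 196, 490 and 591 in the same order (ratio 0.401, 0.383 to 0.420), with the sibling library above both. MiR-194, from the same genomic neighbourhood, stood at 17.8, 62.0 and 39.6. Pancreatic miR-217 had only 40 counts in the orphan and 38 in the non-sibling library, which at these depths is a log2 ratio of -1.65. MiR-148a and miR-148b, on the same list but present in many tissues, had log2 ratios of 0.83 and 0.51 and were not called. With 4 of 6 lower the list had a median log2 ratio of -1.49, but its summed level went the other way, at 6276 scaled CPM in the orphan, 4646 in the non-sibling and 6433 in the sibling library (ratio 1.35, 1.33 to 1.37). MiR-148a held most of that sum, at 5719, 3221 and 4999 in the same order. The liver microRNA miR-122 was below the count limit, at 1 count in the orphan, 22 in the non-sibling and 5 in the sibling library.

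Epithelial microRNAs lay below 0 without all passing the rule. In the miR-200 family, which keeps epithelial identity by repressing ZEB factors and is also active in olfactory epithelium, miR-200a stood at 218 scaled CPM in the orphan, 548 in the non-sibling and 259 in the sibling library (log2 ratio -1.33). MiR-429 and miR-200b had log2 ratios of -0.82 and -0.64 and were not called. MiR-203, which drives skin cell differentiation, stood at 468 in the orphan, 1108 in the non-sibling and 488 in the sibling library (log2 ratio -1.24). Both miR-205 forms, also typical of skin, had log2 ratios of -0.40 and -0.39 and were not called. The orphan and sibling levels of miR-200a and miR-203 were close, and the non-sibling library was the one apart. Endocrine miR-375 had a log2 ratio of -0.85 and was not called.

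Among the remaining lower sequences, miR-10c and miR-24b came from families in which other members were not called. MiR-10c, of the Hox cluster family tied to the hindbrain and trunk, stood at 14.02 scaled CPM in the orphan, 44.9 in the non-sibling and 53.7 in the sibling library (log2 ratio -1.68), while miR-10a and miR-10b had -0.67 and -0.24. MiR-24b stood at 12.2, 40.3 and 18.4 in the same order (log2 ratio -1.73), while the other members of the miR-23, miR-24 and miR-27 clusters ran from -0.93 to 0.52. A miR-24b entry of another species had 71, 39 and 6 counts in that order and a log2 ratio of -0.87. Myeloid miR-223 had 58 counts in the orphan, 77 in the non-sibling and 3 in the sibling library, a log2 ratio of -2.13, and was the one lower call among 7 leukocyte sequences, a share near the 12.8% of all 156. MiR-29a and miR-29c-3p were each counted 37 times in orphan and 26 times in non-sibling tissue (log2 ratio -1.23). One sequence contains the other, and their counts are equal in every library, so they are the same reads under both names. Just outside the rule, miR-27a and miR-23a both had a log2 ratio of -0.93.

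**Figure D2:**
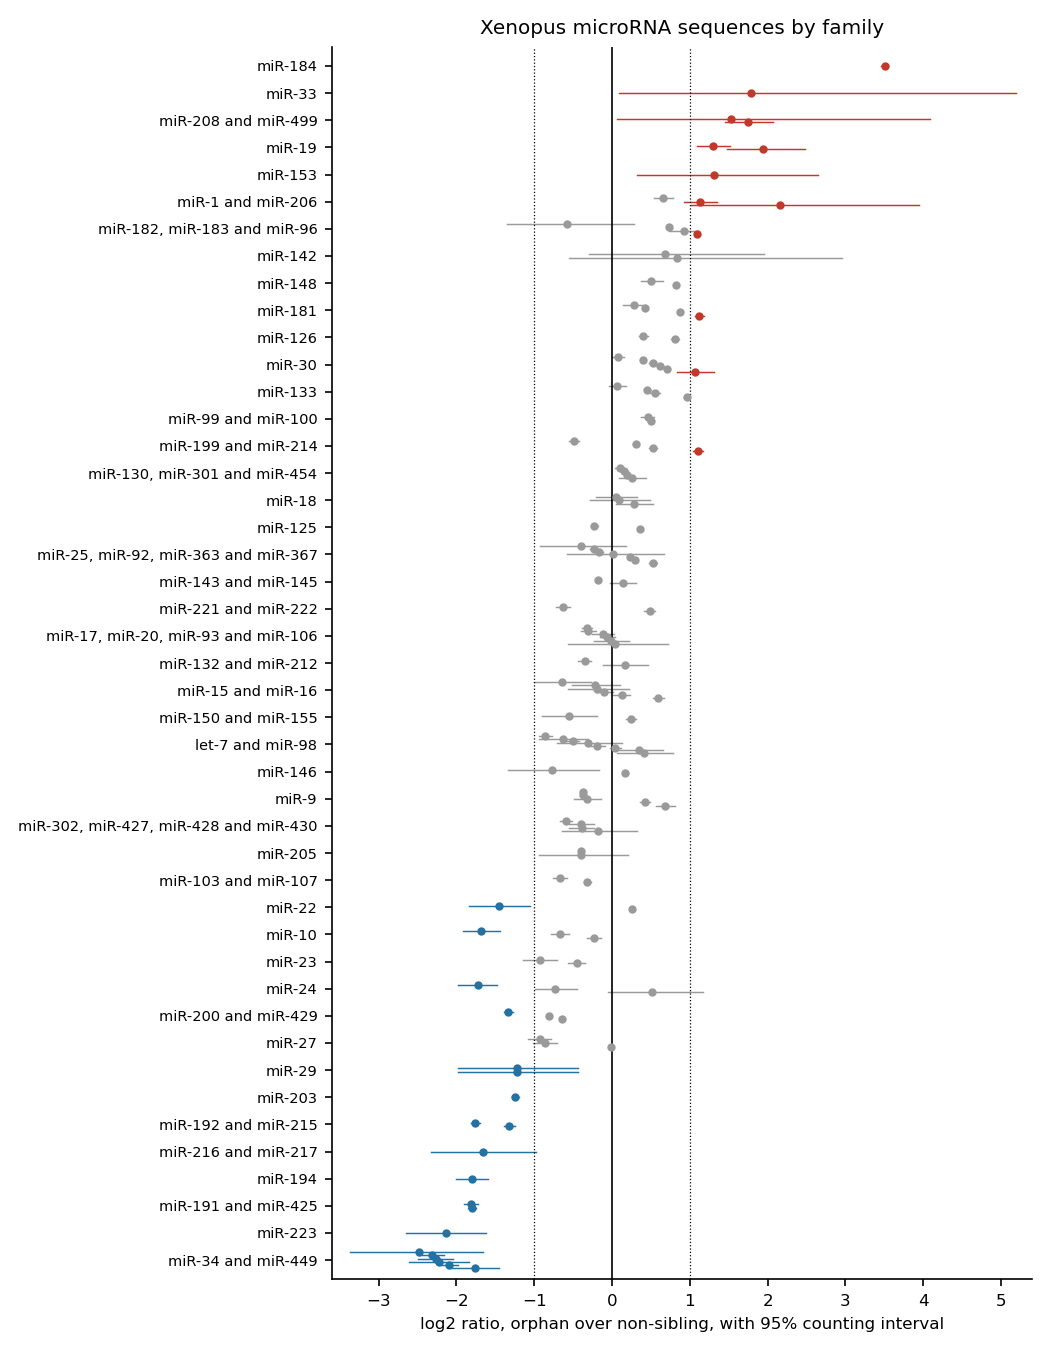
Log2 ratio of orphan over non-sibling for each drawn sequence (point) with its exact 95% counting interval (line), grouped by family and ordered by family median. Families with 1 sequence are drawn only if it was called. MiR-190, which was higher, and miR-2184, miR-489 and miR-2188, which were not called, are on no family list and are not drawn. Red points were higher, blue points lower and grey points neither, and dotted lines mark a log2 ratio of -1 and 1. All 6 miR-34 and miR-449 points lie left of -1.7 and miR-184 lies at 3.51. Of the 6, miR-449b-3p passed the count limit only through its non-sibling counts.

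MiR-184, known from the lens and corneal epithelium of mammals and from neural progenitors, had the highest ratio of the 156 sequences. It was counted 140443 times in the orphan, 3735 times in the non-sibling and 881 times in the sibling library, or 6454, 568 and 1246 scaled CPM. The orphan library stood apart from both others. The ratio over non-sibling was 11.4 (95% interval 11.0 to 11.7). An Anolis entry that differs from it by C21G (Xenopus base first) had 6980, 389 and 64 counts in the same order and a ratio of 5.42 (4.90 to 6.02). That entry amounted to 4.97% of the Xenopus count among orphan reads and 10.4% among non-sibling reads. MiR-204, the other microRNA of eye epithelia and choroid plexus, had a log2 ratio of 0.39 and was not called.

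The miR-183 cluster, one transcript of 3 hairpins found in hair cells, photoreceptors and other sensory cells, had the largest summed level of all families in the orphan and the non-sibling library, though not in the sibling library. MiR-183 stood at 15647 scaled CPM in the orphan, 7314 in the non-sibling and 12109 in the sibling library, so the ratio over non-sibling was 2.14 (2.12 to 2.16). MiR-96 stood at 75.9, 39.99 and 65.0 in the same order, and miR-182-5p at 36761, 22182 and 22004. Their log2 ratios were 1.10 for miR-183, 0.92 for miR-96 and 0.73 for miR-182-5p, so miR-183 alone passed the rule. The rare strand miR-182-3p went the other way, with a log2 ratio of -0.58, and was not called. It had 45 counts in the orphan, 20 in the non-sibling and 4 in the sibling library. Under total-count scaling the log2 ratio of miR-183 was 0.70.

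Muscle microRNAs had log2 ratios above 0 in all 9 sequences, and 4 of them were higher by the rule, against 8.97% of the 156 sequences. Of these calls, miR-1b and miR-208 passed the count limit only through their orphan counts, so they cannot be weighed against that share. MiR-499, encoded within a myosin heavy chain gene, stood at 49.3 scaled CPM in the orphan, 14.6 in the non-sibling and 39.6 in the sibling library (ratio 3.38, 2.74 to 4.21). MiR-1a stood at 72.4, 33.0 and 39.6 in the same order (ratio 2.19, 1.90 to 2.54). MiR-1b had 81 counts in the orphan and 5 in the non-sibling library (ratio 4.90, 2.01 to 15.5), and cardiac miR-208 had 33 and 3 (ratio 3.32, 1.04 to 16.9). MiR-206, of skeletal muscle, had a log2 ratio of 0.66, and the 4 miR-133 sequences ran from 0.06 for miR-133d to 0.96 for miR-133a, just outside the rule. Summed, the list stood at 4706 scaled CPM in the orphan, 2807 in the non-sibling and 4486 in the sibling library, although near-identical miR-133 sequences may share reads. Under total-count scaling miR-133d changed sign, and miR-1b and miR-499 alone of this list kept their calls.

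MiR-19a and miR-19b, members of the miR-17-92 cluster, which is active in dividing cells, were both higher in the orphan library. MiR-19a stood at 22.5 scaled CPM in the orphan, 5.78 in the non-sibling and 21.2 in the sibling library, from 489, 38 and 15 counts (ratio 3.89, 2.79 to 5.56). MiR-19b stood at 76.1, 30.9 and 46.7 in the same order (ratio 2.46, 2.13 to 2.86). For miR-19a the non-sibling library was low and the other libraries were close. The other members of the cluster stayed near 0: miR-18a-5p had a log2 ratio of 0.28, miR-92a 0.23, miR-17-5p -0.06 and miR-20a-5p -0.11. Of 18 sequences of this cluster and its paralogs, 2 were higher and none lower, a share of higher calls near the 8.97% of all 156 sequences. Under total-count scaling the log2 ratio of miR-19b was 0.91.

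Among the other higher sequences, miR-190, found within the talin 2 gene in mammals, stood at 40.2 scaled CPM in the orphan, 10.04 in the non-sibling and 26.9 in the sibling library (ratio 4.01, 3.12 to 5.23). MiR-199b, of mesenchyme, stood at 722, 336 and 489 in the same order (ratio 2.15, 2.06 to 2.25). MiR-181a-2-3p stood at 940, 433 and 663, and miR-30a-3p at 54.4, 26.0 and 52.3, with log2 ratios of 1.12 and 1.06. All 4 miR-181 and all 6 miR-30 sequences had log2 ratios above 0, and 1 of each family passed the rule, but 2 of each family changed sign under some scaling. The sibling level lay between the orphan and non-sibling levels for miR-190, miR-199b, miR-181a-2-3p and miR-30a-3p.

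**Figure D3:**
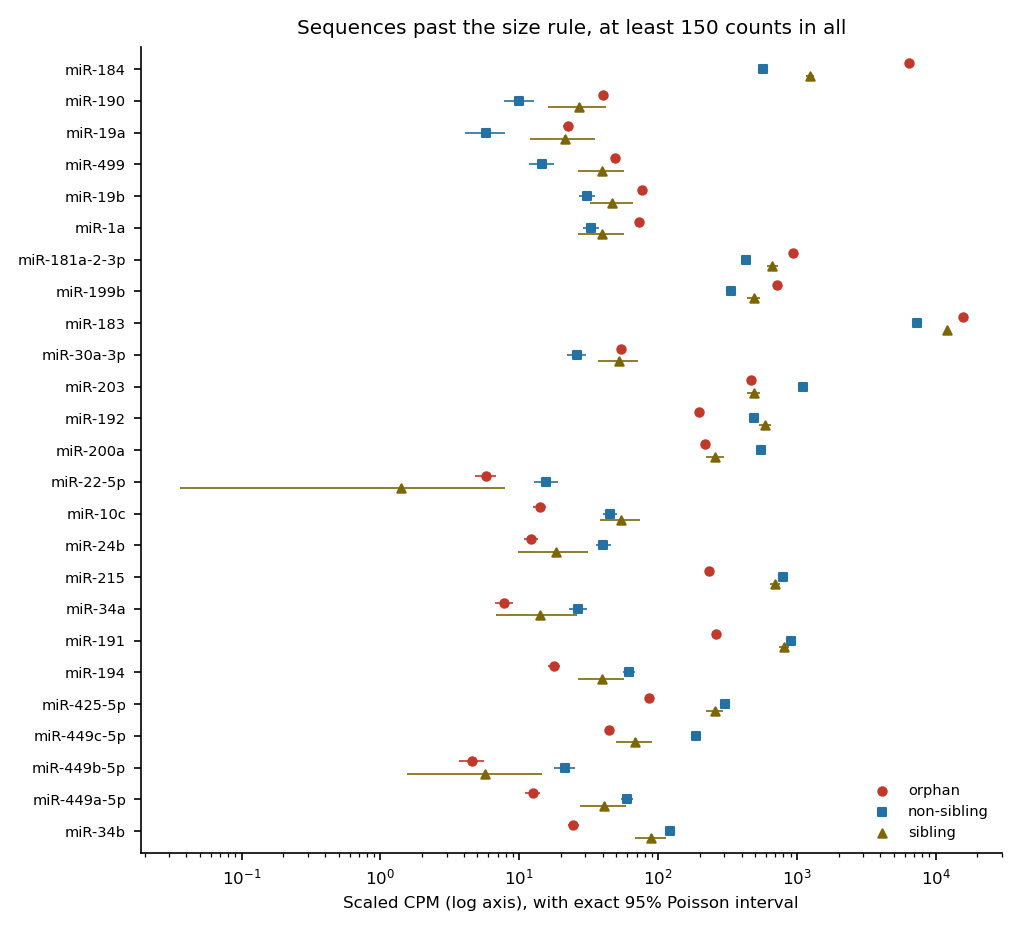
Level in the orphan (circle), non-sibling (square) and sibling (triangle) library of the called sequences with at least 150 counts in all, in scaled CPM on a log axis with exact 95% Poisson intervals. Sequences run down the page from the highest to the lowest ratio of orphan over non-sibling, and most sibling points lie between the other points.

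Neuronal microRNAs, which bear on the labelled tissue, were mostly not called. All 17 were counted in the orphan and in the non-sibling library, as were all 156 sequences. MiR-9-5p stood at 6475 scaled CPM in the orphan, 8396 in the non-sibling and 4028 in the sibling library, and miR-128 at 1788, 1610 and 1015. MiR-124, the most neuron-restricted of them, stood at only 84.7, 75.3 and 63.6 in the same order, below the muscle microRNA miR-133a at 2667, 1369 and 2177 and the skin microRNA miR-205a at 2467, 3258 and 3660. Comparisons between different microRNAs also carry differences in how well each is captured. The neuronal list had a median log2 ratio of 0.14, with 1 of 17 higher and none lower, against 8.97% and 12.8% of all 156 sequences. MiR-9-5p and miR-9a-5p on this list have equal counts in every library, so their reads are listed under both names. Summed, the list had a ratio of 0.816, below 1 where the median log2 ratio is above 0, with miR-9-5p and miR-9a-5p both in the sum. The higher one was miR-153, with 69 orphan and 8 non-sibling counts (ratio 2.61, 1.25 to 6.28), and it passed the count limit only through its orphan counts. A miR-153 entry of another species had 57 and 10 counts in the same order. Its ratio of 1.72 had an interval of 0.872 to 3.78, which includes 1. MiR-124 had a log2 ratio of 0.17, miR-128 0.15, miR-7 0.23, miR-218 -0.30, miR-138 -0.27 and miR-129 -0.63. The oligodendrocyte microRNA miR-219 was below the limit, with 3 orphan counts and 0 non-sibling counts.

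Lower calls made up 6 of 6 sequences of the ciliated, 4 of 6 of the digestive and 1 of 3 of the skin list, against 12.8% of all 156. On the ciliated list, miR-449b-3p passed the count limit only through its non-sibling counts. The epithelial and Hox lists also held 1 of 3 each, the leukocyte list 1 of 7 and the list of broadly present microRNAs 6 of 43. MiR-449b-5p and miR-449b-3p come from one hairpin, and miR-192, miR-215 and miR-194 from neighbouring genes. Members of a list are thus not independent, and these shares are a description only. Summed levels of the skin list (miR-203 and both miR-205 forms) were 2939 scaled CPM in the orphan, 4371 in the non-sibling and 4161 in the sibling library. No sequence on these lists was at 0 in the orphan or non-sibling library, which holds for all 156 sequences. The part of neighbouring tissue in these or the other differences was not tested, and in a bulk cut fewer cells of a type and less RNA per cell cannot be told apart.

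Many families had no called sequence. The 8 let-7 and miR-98 sequences, regulators of developmental timing with the seed GAGGUAG, had log2 ratios from -0.86 for let-7e to 0.41 for let-7g, with a median of -0.25. The 6 miR-15 and miR-16 sequences had a median of -0.14, the 4 miR-130 and miR-301 sequences 0.18 and the 6 miR-17, miR-20, miR-93 and miR-106 sequences -0.09. A shift of the size that scaling alone gives would change the sign of these medians, except that of let-7. MiR-26 had a log2 ratio of 0.75, miR-100 0.50 and miR-22-3p 0.26. The miR-302, miR-427 and miR-428 group, which clears maternal messages in the early embryo, had a median of -0.39 over 4 sequences. The X. tropicalis form of miR-427 contains the X. laevis form, and they have 1152 and 1149 orphan counts, which is nearly one set of reads.

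In the shallow sibling library 32 sequences had under 10 counts, 3 of them with 0 and 21 with at most 3. Of these 32, the orphan over non-sibling ratio was higher for 4 and lower for 7, with a median log2 ratio of -0.30, while of the other 124 sequences 10 were higher and 13 lower, with a median of 0.09. All 4 higher ones among the 32 passed the count limit only through their orphan counts, as did some that were not called. Lower miR-449b-3p passed it only through its non-sibling counts. The median and the calls of the 32 include these sequences. Both the orphan and the non-sibling level lay inside the sibling library's 95% Poisson interval for 21 of the 32. For 0 sibling counts that interval reached up to 5.22 scaled CPM. The pair itself was often precise where the sibling library was not. MiR-22-5p had 125 counts in the orphan, 103 in the non-sibling and 1 in the sibling library, so the ratio over non-sibling was 0.367 (0.280 to 0.481). MiR-449b-5p had 99, 140 and 4 counts in the same order (ratio 0.214, 0.164 to 0.278), in step with the better-counted members of its family.

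Some rare sequences were thin in the pair too. MiR-33b, encoded in vertebrate SREBF genes, had 28 counts in the orphan, 2 in the non-sibling and 0 in the sibling library, and its ratio of 4.23 had an interval of 1.07 to 36.7. MiR-449b-3p had 20, 34 and 3 counts in the same order (ratio 0.178, 0.0970 to 0.318) and passed the count limit only through its non-sibling counts. For 5 of the 32, both levels of the pair lay outside the sibling interval. MiR-135, a brain microRNA, stood at 40.2 scaled CPM in the orphan and 36.3 in the non-sibling library, against 4.24 in the sibling library with an interval of 0.875 to 12.4. MiR-212, which neurons induce with activity together with miR-132, stood at 21.7, 19.3 and 4.24 in the same order, and erythrocyte miR-451 at 18.0, 32.5 and 4.24. MiR-135 and miR-212 had ratios of 1.11 and 1.12 within the pair, so only the sibling library stood apart for them. MiR-23a and miR-205b were the other pair of sequences outside that interval.

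**Figure D4:**
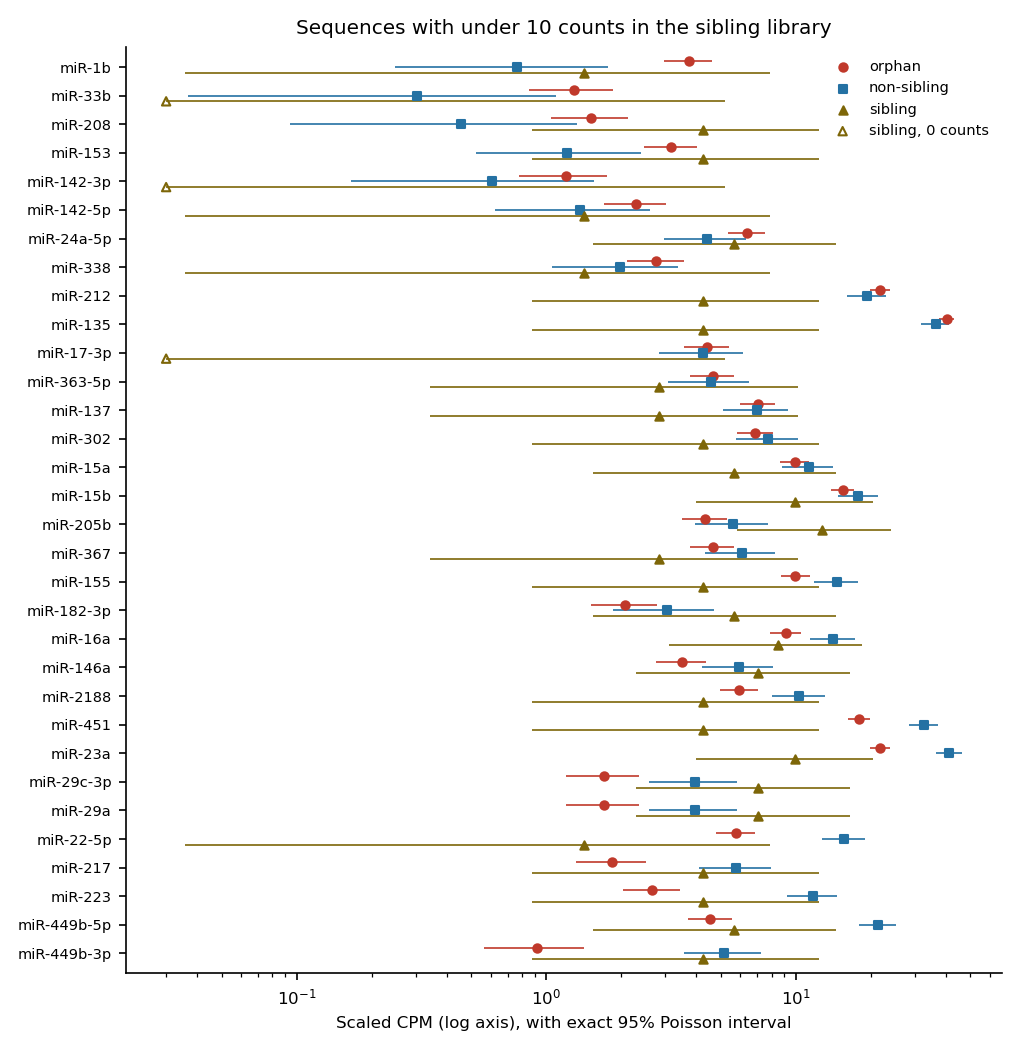
Level of the 32 sequences with under 10 sibling counts in the orphan (circle), non-sibling (square) and sibling (triangle) library, in scaled CPM on a log axis with exact 95% Poisson intervals. Open triangles at the left edge stand for 0 sibling counts, where no level can be drawn on a log axis; sibling intervals are far wider than those of the orphan and non-sibling libraries and cover both of their levels for 21 sequences.

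Of the 10 higher sequences that were not rare, all 10 had a sibling level between the orphan and non-sibling levels. Of the 13 lower ones that were not rare, 11 did, and miR-192 and miR-10c were highest in the sibling library. Of the 101 sequences that were neither rare nor called, 23 had a sibling level between the others. Called sequences were picked for a gap of at least 2-fold, which leaves more room for a level between. These counts are therefore no test of whether the sibling library is intermediate. Scaling used all 3 libraries, and the sibling library has too few counts to place many of these firmly.

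Sequences were also grouped by seed. The 156 sequences had 93 seeds, of which 31 were shared by 94 sequences. For 22 shared seeds all log2 ratios had one sign and for 9 they were mixed, and the median span within a seed was 0.58. No share was computed for sequences grouped without regard to seed, and 50 of the 156 signs changed under some scaling. These counts are therefore a description only. The widest span, 1.503, was that of miR-1a, miR-1b and miR-206, and miR-1b passed the count limit only through its orphan counts. Among the 8 shared seeds with any call, none held both a higher and a lower sequence, and in 4 every sequence was called. These were the seeds of miR-34a with the miR-449 5p strands, of miR-192 and miR-215, of miR-19, and of the miR-29 pair that holds the same reads. Near-identical sequences may share reads, so members of a seed group are not independent.

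Of 24 pairs of sequences that differ by 1 substitution over their shared length, the ratio intervals overlapped in 8 and were apart in 16. Lengths within a pair could also differ by 1 base. The share over all pairs of sequences was not computed, and intervals of counting error are narrow for abundant sequences. The 16 therefore say nothing particular about such pairs. MiR-9b-5p was paired with both miR-9-5p and miR-9a-5p, which have equal counts. MiR-9b-5p and miR-9a-5p differ by C11U and had log2 ratios of 0.42 and -0.37. MiR-9-5p also lacks the last base of these sequences. MiR-27b and miR-27a differ by U19C and had -0.01 and -0.93. MiR-199b and miR-199a-5p differ by G18C and had 1.11 and 0.52, and miR-192 and miR-215 differ by U13A and had -1.32 and -1.76. In each substitution the base of the first-named sequence comes first and positions count from its 5′ end. How reads that match several such entries were assigned is not given in the sources used here.

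Both strands of a hairpin were present for 13 precursors. For miR-22 the 5p strand made up 0.116% of the orphan counts of both strands (exact 95% interval 0.0968 to 0.139) and 0.379% of the non-sibling counts (0.310 to 0.460). The abundant miR-22-3p strand was not called, so the minor strand alone was lower. For miR-24a the 5p strand made up 29.0% of the orphan counts (24.99 to 33.3) and 14.6% of the non-sibling counts (9.98 to 20.3). For miR-126 the 3p strand made up 39.4% of the orphan and 46.3% of the non-sibling counts. For miR-449b both strands were lower, but the 3p strand passed the count limit only through its non-sibling counts.

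The higher sequences had a lower median GC content than the others. The median GC content was 37.7% for the higher sequences, 44.2% for the lower ones and 44.0% for those in neither class. Of 39 sequences with at most 40% GC, 8 were higher and 2 lower. Of 91 above that and up to 50%, 4 were higher and 15 lower, and of 26 with more, 2 were higher and 3 lower. Among the higher sequences, miR-1b (28.6% GC), miR-153 (35%), miR-208 (36.4%) and miR-33b (42.1%) passed the count limit only through their orphan counts. The median and the counts of higher sequences include them, so the GC difference cannot be weighed firmly. Over the 156 sequences the correlation of GC content with the log2 ratio was weak, with a Spearman rho of -0.13 and a Pearson r of -0.17, given as a description since all points share 2 libraries. With a trend in GC content and length removed, 13 were higher and 20 lower, and all 5 higher and 20 lower calls that held under every scaling were kept.

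**Figure D5:**
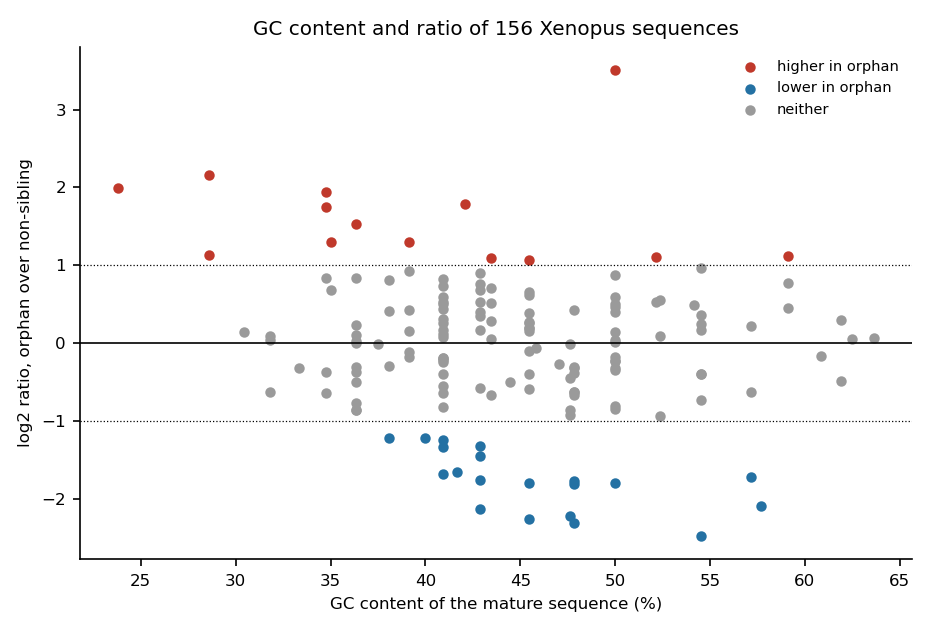
GC content of the mature sequence (x axis, percent) and log2 ratio of orphan over non-sibling (y axis) for the 156 sequences, coloured by call, with dotted lines at a log2 ratio of -1 and 1. The left end, up to 40% GC, holds 8 higher and 2 lower sequences, and miR-184 lies at the top at 3.51. Of the 8, miR-1b, miR-153 and miR-208 passed the count limit only through their orphan counts.

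Calls occurred in every range of levels and made up the smallest share of the sequences above 1000 scaled CPM. Among 29 sequences above a mean of 1000 scaled CPM in the pair, 2 were higher and none lower, with a median log2 ratio of 0.36, and the 55 between 100 and 1000 held 2 higher and 7 lower. The 49 between 10 and 100 held 6 higher and 8 lower, and the 23 under 10 held 4 higher and 5 lower. All 4 higher ones under 10 passed the count limit only through their orphan counts. Among the lower ones there, miR-449b-3p passed it only through its non-sibling counts. That range therefore cannot be weighed against the others. The authors' deposited table gives log2 ratios in the opposite direction, non-sibling over orphan, from quantile-normalized counts. All 34 called sequences had the matching direction there, with -3.44 for miR-184, 1.72 for miR-191 and 1.64 for miR-34b. Other calls lay near 0 there, such as -0.13 for miR-33b, -0.14 for miR-208 and 0.20 for miR-29a. Of the 156 sequences, 21 had a deposited ratio beyond 1 in either direction. These include miR-140 (-1.16) and miR-429 (1.02), which were not called, and leave out calls such as miR-183 (-0.85) and miR-34a (0.83). The deposited ratios come from the same libraries, so the matching direction is no separate check.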

How the data were processed

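MicroRNA entries were counted in 3 libraries, 1 per rearing condition, and grouped by title. Per the file headers, the deposited table gives a raw read count per mature microRNA entry and library, and no other normalization of these columns is stated. The authors also deposited a signal, quantile-normalized counts, and log2 ratios between libraries. Which aligner, counter, microRNA release or genome build was used is not given in the sources used here, so no genome positions are printed.

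From the counts, TMM factors (edgeR 4.0.16 in R 4.3.3) were computed over the 866 entries with at least 30 counts, with table totals as library sizes, giving 0.966 for orphan, 1.27 for non-sibling and 0.817 for sibling. Ratios have exact conditional (Clopper-Pearson) 95% intervals, levels have exact Poisson intervals, and log2 ratios add 0.5 counts to each library. Intervals cover counting error only, since each condition has 1 library. Whether reads carry molecular identifiers is not given in the sources used here. For identical sequences the entry with most counts was kept. Families and cell type lists came from textbook knowledge. 1 line with no name was left out.

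Sequences named in the text are the 12 largest and 12 smallest ratios among called sequences with at least 150 counts, the 10 most abundant, called sequences under 10 sibling counts, the most abundant pair per family, and both strands of a precursor. Others were named after their values were seen. The members and lists were chosen with earlier results of these data known. Scripts (Python 3.11.15, scipy 1.17.1) were tested on simulated counts. Alternatives were total-count, upper-quartile, DESeq2 1.42.0, Xenopus-only TMM, pairwise TMM and quantile scaling, other count limits, merging and offsets, a GC trend, and a 3-fold rule.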

Additional observations from a re-analysis of the deposited data

How the results depend on the processing

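Against 14 higher and 20 lower sequences, total-count scaling gave 5 and 38, Xenopus-only TMM 7 and 25, upper-quartile scaling 19 and 20, a limit of 300 counts 10 and 13, and a 3-fold rule 7 and 14. The other alternatives gave 11 to 16 higher and 19 to 24 lower, and none of the alternatives run turned a called sequence to the other direction. The drop at 300 counts comes with fewer sequences tested (129). MiR-33b, miR-153 and miR-208 lost their calls when 5 counts were added before the logarithm. Values of single sequences and family medians moved beyond a limit set by counting error in 648 of 2452 comparisons with an alternative. For a sequence the limit was its own interval. For a family it was the median distance from the middle to the end of its members' log2 intervals. No paired analysis was possible because each condition has 1 library. For that reason neither compared library could be left out. TMM without the sibling library left every orphan over non-sibling ratio unchanged, so its 14 and 20 calls are no separate check. Depth limits the sibling library most.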
